A study of Mus musculus with 3 samples.

Results

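The small leucine-rich proteoglycans are secreted proteins built around a curved array of leucine-rich repeats, and many of them carry chondroitin, dermatan or keratan sulphate chains. They bind collagen fibrils and control fibril diameter and spacing, and several also bind growth factors of the TGF-beta family or signal through cell surface receptors. In connective tissue they are made mainly by fibroblasts and related stromal cells. The genes followed here were Dcn, Bgn and Aspn of class I, Lum, Fmod, Prelp, Kera and Omd of class II, Ogn of class III and Podn of class V. The family was selected on measured values, the log2 differences between the siRNA-labelled and the 2 other arrays, which were already known, so the differences below describe the arrays and carry no test. Of the 10 genes, 9 had a probe named through its RefSeq accession, each with 1 probe, out of 19751 genes with a named probe. Prelp was matched by no accession and is not analysed here.

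The cells were mouse cavernous endothelial cells by label, primary cells of C57BL/6 mice grown from the erectile tissue in a medium with 20% serum, heparin and vascular endothelial growth factor A. One array was labelled normal glucose (5 mmol), a second high glucose (30 mmol) and the last one high glucose (30 mmol) with siRNA against Ninj1 (200 pmol). Each was exposed for 48 h, and each held RNA pooled from 3 numbered samples. The labels name no control siRNA. With 1 array per group there was no replicate check, and "higher" or "lower" refers to the arrays alone. Ninj1, a cell adhesion gene and the target of the siRNA, had a processed signal of 20413 on the normal-glucose-labelled array, 16291 on the high-glucose-labelled array and 25539 on the siRNA-labelled array. The target was thus brightest where its siRNA was labelled, which goes against that label. The group words in the file names also exchange the pair of high-glucose arrays. Every direction below therefore follows the labels, and the arrays are called by them throughout.

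Signals are the background-subtracted spot intensities of the scanner software, on a linear scale. Differences are on the log2 scale after each array's 75th percentile was subtracted. Between 67.1% and 70.6% of probes were well above background, the scanner software's own mark of a usable signal, and no spot was saturated. A difference is given as "at least" where 1 array of the pair did not reach that mark, and is then a bound. Probes differ in brightness, so a signal is compared only with the same gene's signal on another array. Of 14 endothelial markers 11 were well above background on the normal-glucose-labelled and high-glucose-labelled arrays and 9 on the siRNA-labelled array. Kdr, the main receptor of vascular endothelial growth factor A, had signals of 7440, 7298 and 8278 on the arrays in that order, and Egfl7, a secreted endothelial factor, had signals of 3355, 3194 and 5967. Tie1, Emcn and Erg were not well above background on any array, and Pecam1, an endothelial junction protein, had signals of 61.9, 76.5 and 72.4 on the normal-glucose-labelled, high-glucose-labelled and siRNA-labelled arrays. Other endothelial markers differed past 2-fold in both directions on the siRNA-labelled array, as given below. All 13 fibroblast markers outside the family were well above background on every array.

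The siRNA-labelled array had lower signals for all 9 measured proteoglycan genes than the high-glucose-labelled array, and 7 of the 9 were at least 2-fold lower. Over all 15626 genes compared, 8.21% were at least 2-fold lower and 6.51% at least 2-fold higher. Because the family was chosen with this contrast in view, nothing is read from its count. The median log2 difference was -2.76 for the 9 genes and 0.01 over all genes compared. In RNA from whole cultures, fewer cells of a type and less RNA per cell cannot be told apart.

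**Figure D1:**
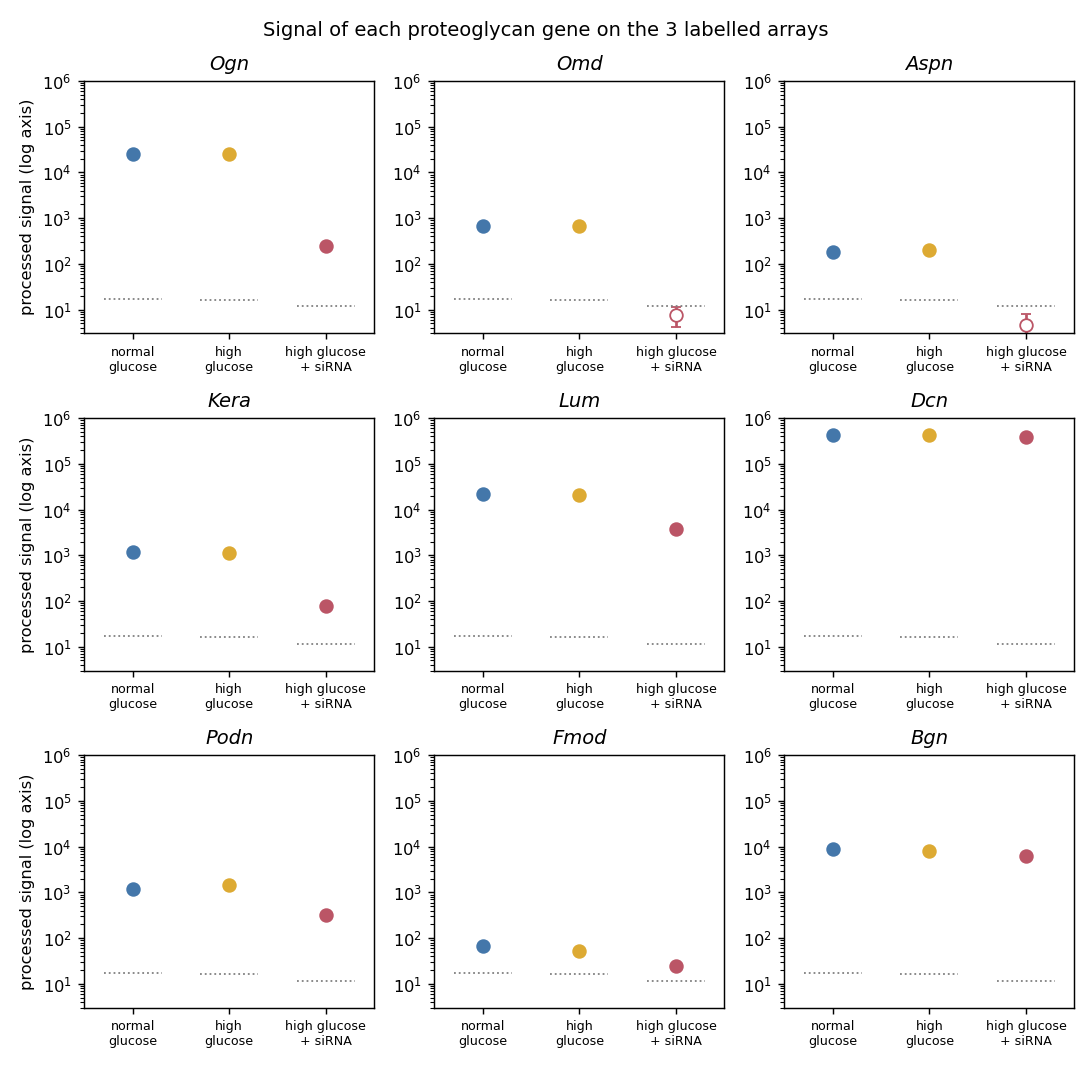
Processed signal (log axis) of the 9 proteoglycan genes on the 3 labelled arrays. Points are 1 array each, error bars are the scanner software's error of the spot or, for Kera, the SD of 10 spots, open points are not well above background and dotted lines are the lowest signal well above background on that array; the normal-glucose-labelled and high-glucose-labelled arrays lie side by side in every panel, and Ogn goes from 25444 on the high-glucose-labelled array to 241 on the siRNA-labelled array.

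Ogn encodes osteoglycin, also called mimecan, a class III member that binds collagen fibrils. Its signal was 25358 on the normal-glucose-labelled array, 25444 on the high-glucose-labelled array and 241 on the siRNA-labelled array. The first 2 arrays were alike and the siRNA-labelled one stood far below both. Ogn was 123-fold lower on the siRNA-labelled than on the high-glucose-labelled array (log2 difference -6.95), and had the lowest rank, 1, of the 14521 genes measured on both arrays. Omd encodes osteomodulin, a keratan sulphate proteoglycan first described in bone. It had signals of 659, 683 and 7.73 on the same arrays in that order, and was not well above background on the siRNA-labelled array. The difference was at least 68.4-fold. Aspn encodes asporin, a class I protein that binds collagen and TGF-beta. Its signals were 184, 200 and 4.68, the last one again not well above background, and the difference was at least 20.0-fold. The bounds of these dim genes depend on the background correction, with log2 values of -3.41 for Omd and -2.07 for Aspn after normexp correction in place of -6.10 and -4.32.

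Kera encodes keratocan, a keratan sulphate proteoglycan known for its role in the transparent cornea. It is the only member printed 10 times on each array, so its spot error can be seen directly. Its signal was 1179 ± 48.9 (SD, 10 spots) on the normal-glucose-labelled array, 1101 ± 43.8 on the high-glucose-labelled array and 78.6 ± 7.63 on the siRNA-labelled array. Its spots ranged from 1045 to 1197 on the high-glucose-labelled array and from 66.7 to 89.5 on the siRNA-labelled array, without overlap. Kera was 16.4-fold lower on the siRNA-labelled array (log2 difference -4.04, standard error over spots 0.05), and the value was -3.19 after normexp correction. The spot error covers the printing and reading of the array and no culture or hybridisation error.

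Lum encodes lumican, the class II proteoglycan that is widespread in fibrous connective tissue. Its signals were 21453, 21306 and 3673, which made it 6.79-fold lower on the siRNA-labelled array than on the high-glucose-labelled array. Podn encodes podocan, a class V member of the vessel wall and other matrices. It had signals of 1207, 1443 and 315, and was 5.36-fold lower. Fmod encodes fibromodulin, a keratan sulphate proteoglycan that guides collagen crosslinking. It was dim, with signals of 68.6, 52.7 and 24.5, and was 2.52-fold lower. The Fmod difference fell short of 2-fold after normexp correction (log2 difference -0.60 in place of -1.34).

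Dcn and Bgn, the most studied members, stood apart from the other genes by their small differences. Dcn encodes decorin, which carries 1 chondroitin or dermatan sulphate chain and binds TGF-beta, and its signals were 435886, 432729 and 380630. Dcn was 1.33-fold lower on the siRNA-labelled array than on the high-glucose-labelled array (log2 difference -0.41). Bgn encodes biglycan, a close relative of decorin that can also signal through Toll-like receptors 2 and 4. Its signals were 8729, 8234 and 6386, and it was 1.51-fold lower (-0.59). Both stayed short of 2-fold. After normexp correction they were not set apart from Fmod, with log2 differences of -0.44 for Dcn, -0.62 for Bgn and -0.60 for Fmod. Among 14521 measured genes Dcn ranked 3073 and Bgn 2114 from the lowest, against 15 for Kera, 88 for Lum, 124 for Podn and 590 for Fmod.

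**Figure D2:**
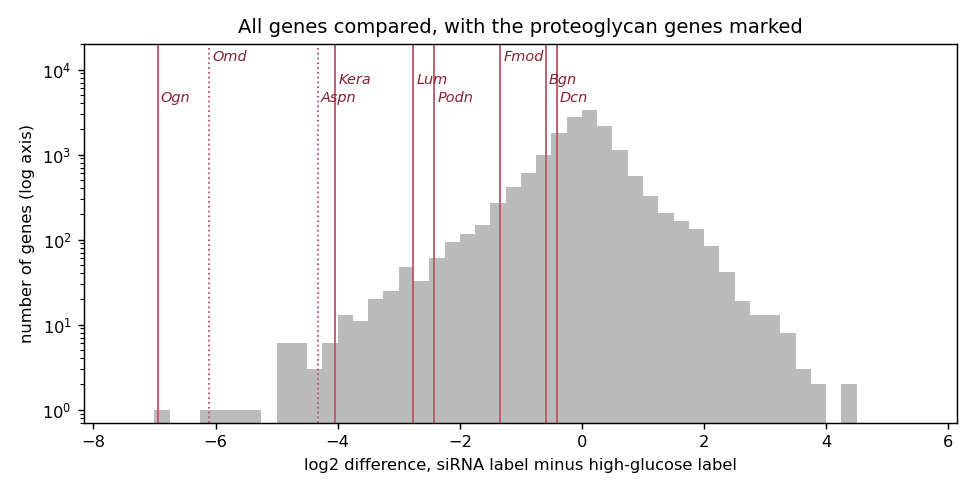
Number of genes (log axis) by log2 difference of the siRNA-labelled from the high-glucose-labelled array, for the 15626 genes compared, in grey. Vertical lines mark the 9 proteoglycan genes, dotted for the bounds of Omd and Aspn; Ogn is at -6.95, at the left end of all genes, while Dcn at -0.41 and Bgn at -0.59 lie within the bulk.

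The high-glucose-labelled and normal-glucose-labelled arrays were close to each other for this family. None of the 9 genes was at least 2-fold higher or lower, where 0.816% and 0.690% of the 15081 genes compared were. The largest differences were those of Fmod, 1.26-fold lower on the high-glucose-labelled array, and Podn, 1.23-fold higher. Aspn was 1.12-fold higher and Omd 1.07-fold higher. Ogn, Lum, Dcn, Bgn and Kera differed by between 1.02-fold and 1.04-fold, with log2 differences of -0.06 to 0.05. After normexp correction Fmod moved from -0.34 to -0.11 and Podn from 0.30 to 0.16, while Aspn stayed at 0.16.

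Against the normal-glucose-labelled array, the siRNA-labelled array gave nearly the values above, as the 2 comparisons share that array. Ogn was 120-fold lower, Omd at least 64.1-fold, Aspn at least 17.9-fold, Kera 17.1-fold and Lum 6.64-fold. Podn was 4.36-fold lower and Fmod 3.19-fold lower, and these were the 2 members whose values moved most with the choice of reference array. After normexp correction Fmod was again short of 2-fold (log2 difference -0.71), which leaves 6 members past it, and the bounds of Omd and Aspn were -3.30 and -1.91. Dcn and Bgn were 1.30-fold and 1.56-fold lower. Again 7 of 9 were at least 2-fold lower, beside 7.94% lower and 6.35% higher over 15582 genes compared.

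**Figure D3:**
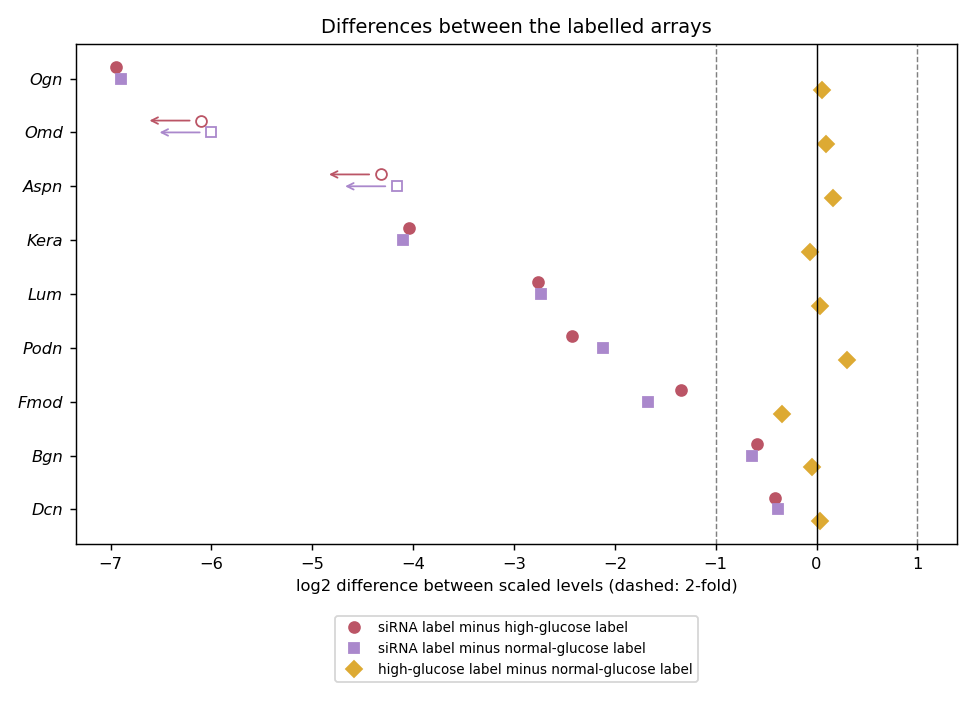
Log2 differences of the 9 proteoglycan genes between the labelled arrays, 1 row per gene. Open symbols with arrows are bounds and dashed lines mark 2-fold; the diamonds of the high-glucose-labelled against the normal-glucose-labelled array lie between -0.34 and 0.30, and the circles and squares of the siRNA-labelled array run from -6.95 to -0.38.

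Most of these genes lie in clusters, and the members' values read along them here are those on which the family was selected. In the RefSeq gene order of GRCm38.p6, Ecm2, Aspn, Omd and Ogn are consecutive protein-coding genes on chromosome 13, Dcn, Lum, Kera and Epyc on chromosome 10, and Optc, Prelp and Fmod on chromosome 1. Podn on chromosome 4 and Bgn on chromosome X stand alone. The 3 genes with the largest values, Ogn, Omd and Aspn, were the 3 measured genes of the chromosome 13 cluster. That order depends on the bound of Aspn: after normexp correction Aspn was at -2.07, with Kera at -3.19, Lum at -2.68 and Podn at -2.14. The other gene of that cluster, Ecm2, an extracellular matrix protein with leucine-rich repeats, did not pass the background mark on the 3 arrays. The flanking genes did not share the difference: of 6 nearest protein-coding neighbours 4 were measured, and they lay between 0.16 and 1.53 on the log2 scale, the highest being Cenpp, a centromere protein gene, at 2.89-fold higher on the siRNA-labelled array.

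On chromosome 10 the cluster was uneven. Dcn, at 1.33-fold lower, lies next to Lum at 6.79-fold and Kera at 16.4-fold, and Epyc, encoding the cartilage proteoglycan epiphycan, was at least 3.74-fold lower from signals of 32.8, 38.4 and 12.0. The 4 measured flanking genes ranged from -0.38 for Poc1b to 0.83 for Eea1. On chromosome 1, Optc, encoding opticin of the eye's vitreous, was 1.42-fold lower beside the 2.52-fold of Fmod, and Chil1, 3 genes beyond Fmod, was 2.05-fold lower. No test was made of the likeness within a cluster, and neighbouring genes were compared by their values alone.

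**Figure D4:**
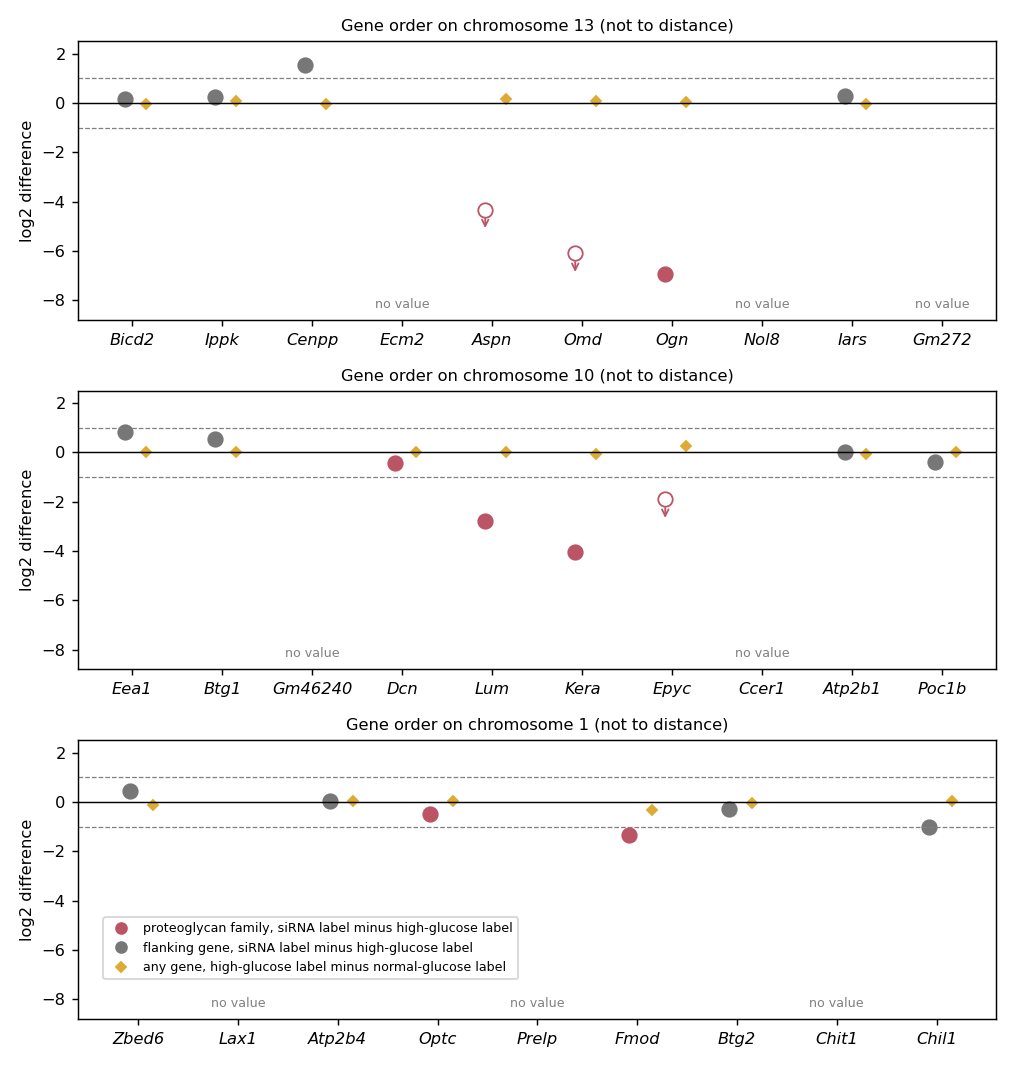
Log2 difference (vertical axis) by gene order along 3 chromosomes, for the proteoglycan clusters and 3 protein-coding genes on either side. Circles are the siRNA-labelled minus the high-glucose-labelled array, open with an arrow where they are bounds, and diamonds are the high-glucose-labelled minus the normal-glucose-labelled array; Aspn, Omd and Ogn lie at -4.32, -6.10 and -6.95 with measured flanking genes between 0.16 and 1.53.

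The 250 bases upstream of the annotated start are shown for the 4 members with the largest differences, from the RefSeq promoter table of GRCm38.p6. They are also shown for Bgn, the only member with a small difference that had a window, as none was given for Dcn or Lum. They lie on the plus strand at chr13:49607765-49608014 for Ogn, chr13:49582212-49582461 for Omd, chr13:49544193-49544442 for Aspn, chr10:97606955-97607204 for Kera and chrX:73483351-73483600 for Bgn. Capitals mark matches on either strand to 6 short motifs. The core promoter motifs were the TATA box, searched as TATAAA, and the box of the nuclear factor Y complex, searched as CCAAT. The stress and growth factor AP-1 was searched as TGANTCA with N for any base, and the Hippo pathway factors of the TEAD family were searched as GGAATG. The skeletal factors of the RUNX family were searched as TGTGGT, and the SMAD factors downstream of TGF-beta were searched as CAGAC. Sequences run 5′ to 3′.
Ogn: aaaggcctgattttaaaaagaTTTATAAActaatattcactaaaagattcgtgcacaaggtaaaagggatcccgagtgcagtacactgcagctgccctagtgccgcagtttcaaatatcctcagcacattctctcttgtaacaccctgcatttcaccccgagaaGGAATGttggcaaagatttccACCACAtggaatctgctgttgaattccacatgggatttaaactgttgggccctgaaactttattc
Omd: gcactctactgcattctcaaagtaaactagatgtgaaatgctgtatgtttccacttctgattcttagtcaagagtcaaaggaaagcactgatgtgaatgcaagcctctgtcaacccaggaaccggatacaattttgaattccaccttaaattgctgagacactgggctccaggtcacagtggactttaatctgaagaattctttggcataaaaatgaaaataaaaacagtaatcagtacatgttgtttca
Aspn: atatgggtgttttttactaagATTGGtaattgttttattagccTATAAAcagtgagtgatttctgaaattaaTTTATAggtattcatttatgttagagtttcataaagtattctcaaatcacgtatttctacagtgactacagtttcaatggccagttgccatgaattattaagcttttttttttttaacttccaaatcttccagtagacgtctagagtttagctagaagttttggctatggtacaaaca
Kera: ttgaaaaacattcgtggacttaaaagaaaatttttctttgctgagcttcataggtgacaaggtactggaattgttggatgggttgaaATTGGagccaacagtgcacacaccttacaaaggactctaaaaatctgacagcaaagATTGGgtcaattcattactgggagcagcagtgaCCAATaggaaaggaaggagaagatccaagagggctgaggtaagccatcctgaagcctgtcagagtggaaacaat
Bgn: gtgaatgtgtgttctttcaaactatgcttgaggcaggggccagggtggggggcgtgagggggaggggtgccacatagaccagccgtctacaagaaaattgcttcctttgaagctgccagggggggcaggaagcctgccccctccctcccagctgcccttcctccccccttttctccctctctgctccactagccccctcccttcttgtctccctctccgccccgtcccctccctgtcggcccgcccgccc

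None of the 6 motifs was present in all of the 4 windows of the strongly lower genes. Ogn and Aspn shared the TATA motif, and Aspn and Kera shared the CCAAT motif. Ogn had 2 overlapping TATA-type matches in 1 run, first bases 229 and 227 bases before the start, 1 TEAD match and 1 RUNX match. Aspn had 2 TATA-type matches, first bases 207 and 178 bases before the start, and 1 CCAAT match. Neither Ogn nor Aspn had a TATA-type match close to the start, so a working TATA box is not shown. Kera had 3 CCAAT matches, and the windows of Omd and Bgn held none of the 6 motifs. Of 32817 windows of the same length, 12.4% held the TATA motif, 33.8% CCAAT, 6.75% AP-1, 12.6% TEAD, 14.0% RUNX and 42.2% SMAD. The windows of Aspn (30.0%), Omd (38.4%), Ogn (42.0%) and Kera (42.4%) had a lower share of G and C than the median window (52.4%), and that of Bgn had a higher share (64.4%). Podn, 5.36-fold lower, had windows of 78.0% and 64.0%, so the order of the differences did not follow base composition in every member with a window. Fmod, 2.52-fold lower, had a window of 51.2% with 2 SMAD matches, and Dcn and Lum had no window. A match is a string of letters and no evidence of binding.

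The remaining genes of the family were mixed. Of 8, all with a named probe, 7 could be compared between the siRNA-labelled and high-glucose-labelled arrays, with a median of -0.30, and Epyc and Nyx were at least 2-fold lower. Nyx, encoding the retinal proteoglycan nyctalopin, had signals of 22.1, 365 and 22.6, so that it was high on the high-glucose-labelled array alone, 17.0-fold above the normal-glucose-labelled array and 18.9-fold above the siRNA-labelled array, from 1 spot per array. Tsku, encoding the secreted signalling modulator tsukushi, was 1.23-fold lower. Chad, encoding chondroadherin of cartilage, and Podnl1, a relative of podocan, were 1.41-fold and 1.49-fold higher. The probes of Chadl pointed in opposite directions, the brighter one 1.27-fold higher and the dimmer one 1.68-fold lower.

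The enzymes that build the sugar chains of these proteins did not share the differences of the core protein genes. Of 22 genes for the linker and the chondroitin or dermatan sulphate chain, all were compared, none was at least 2-fold higher or lower, and the median was -0.12. Dsel, an epimerase of the dermatan chain, was 1.73-fold lower, the sulphotransferases Chst12 and Chst15 were each 1.66-fold lower, and B4galt7, a galactosyltransferase of the linker, was 1.67-fold higher. Among keratan sulphate enzymes 6 of 8 were compared with a median of 0.26 and none past 2-fold, B3gnt2 being 1.80-fold higher and Chst2 1.73-fold higher on 1 of 2 probes that pointed in opposite directions. Of 5 sulphation genes 1 was past 2-fold, the tyrosine sulphotransferase Tpst1, at 2.07-fold lower.

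Most of the collagens, to which these proteins bind, were lower on the siRNA-labelled array as well. Of 10 compared, 6 were at least 2-fold lower and none was 2-fold higher, with a median of -1.23. Over all genes compared, 8.21% were lower and 6.51% higher by that measure, which holds as the background for each list here. Col3a1, the fibril collagen of elastic tissues, was 3.74-fold lower, Col6a2, of the beaded filaments, 3.60-fold, Col1a1 2.80-fold and Col5a2 2.67-fold. Among bound ligands Bmp4 was 3.50-fold lower, Bmp2 2.06-fold higher and Tgfb3 1.97-fold lower. Tnf was at least 2.96-fold lower, from a dim signal of 29.8 on the high-glucose-labelled array. Of the 14 ligands compared 1 was higher and 2 were lower past 2-fold, with a median of -0.16.

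Receptors and proteases went both ways. Of 15 receptor genes 2 were at least 2-fold higher and 2 lower. Itga2, the collagen-binding integrin subunit, was 4.49-fold higher, from a dim signal of 28.2 to 148. Cd14, a co-receptor of Toll-like receptors, was 2.86-fold higher. Tlr2, a receptor of biglycan, was 2.77-fold lower, and Egfr, a receptor of decorin, 2.01-fold lower with its 2 other probes in the same direction. Of 14 proteases 2 were lower and 1 higher past 2-fold: Adamts5, an aggrecan-cleaving protease, was 15.6-fold lower from signals of 1410 to 106, Mmp12 7.09-fold lower and the collagenase Mmp13 3.41-fold higher. In all of these lists the high-glucose-labelled and normal-glucose-labelled arrays had medians between -0.06 and 0.03.

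**Figure D5:**
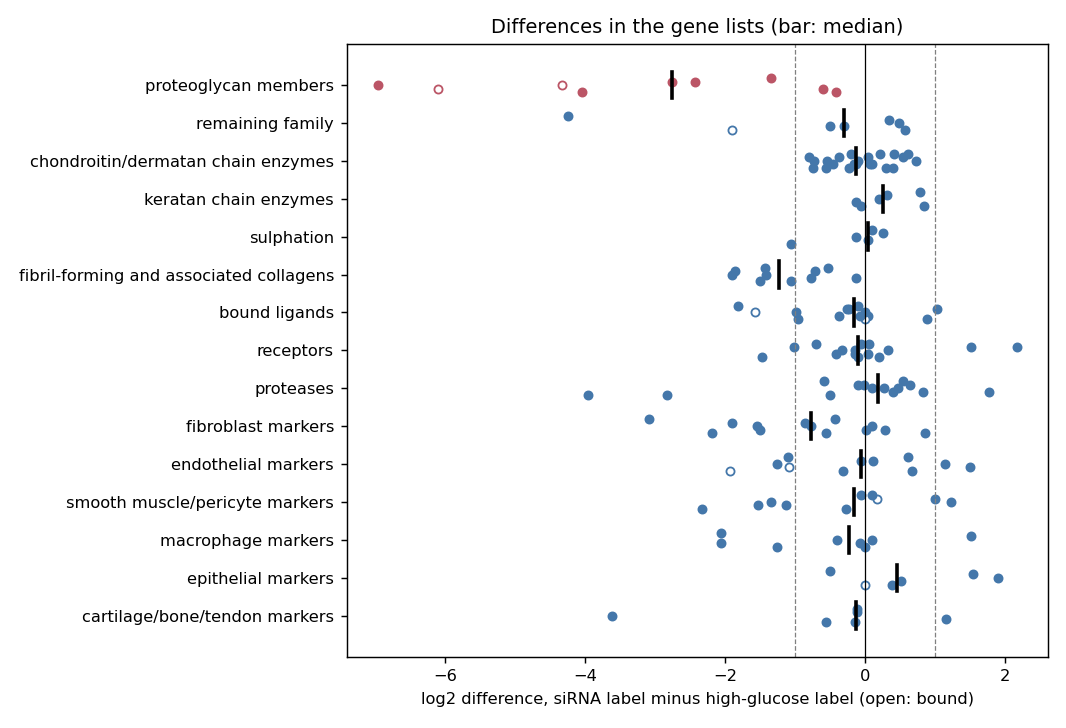
Log2 difference of the siRNA-labelled from the high-glucose-labelled array (horizontal axis) for each gene of the lists (points, open for bounds), with the list median as a bar and 2-fold as dashed lines. The proteoglycan members, in red, have a median of -2.76, the collagens one of -1.23 and the chondroitin or dermatan chain enzymes one of -0.12.

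Some markers of stromal cells were lower beside the proteoglycan genes. Of 13 fibroblast markers outside the family 5 were at least 2-fold lower on the siRNA-labelled than on the high-glucose-labelled array and none was 2-fold higher, with a median of -0.77. Dpt, encoding the collagen-binding dermatopontin, was 8.46-fold lower, the matrix gene Fbln1 4.57-fold and Clec3b, encoding tetranectin, 2.90-fold, and the other members past 2-fold were the collagens Col3a1 and Col1a1. Short of 2-fold, Mfap5 was 1.81-fold lower, Col1a2 1.71-fold, Pdgfra 1.48-fold and Loxl1 1.34-fold. On the higher side were Fap at 1.81-fold, Pi16 at 1.22-fold, Thy1 at 1.07-fold and Cd34 at 1.01-fold. The summed signal of the list, in units of each array's 75th percentile, was 357 on the normal-glucose-labelled array, 355 on the high-glucose-labelled array and 249 on the siRNA-labelled array. This sum follows the brightest probes of the list. The part of fibroblast number or state in the proteoglycan values was not tested.

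Markers of other cell types went in mixed directions, and the smooth muscle and pericyte list had its lowest summed signal on the siRNA-labelled array too. Each sum adds linear signals over genes, so it follows the brightest probes and does not measure the share of a cell type. On that scale, and with the arrays in the same order, smooth muscle and pericyte markers summed to 43.0, 40.3 and 17.2, with 4 of 10 compared lower and 1 higher past 2-fold. The 4 lower genes were Acta2, smooth muscle actin, at 5.02-fold, Pdgfrb at 2.88-fold, Cnn1 at 2.53-fold and Tagln at 2.18-fold. Cspg4, a pericyte proteoglycan, was 2.36-fold higher, and Kcnj8, at 2.0-fold higher after rounding, was just short of the mark. The defining smooth muscle gene Myh11 stayed below the background mark throughout. Macrophage markers summed to 19.2, 18.6 and 20.0, with 3 of 8 compared lower past 2-fold, Adgre1 at 4.18-fold, Lyz2 at 4.13-fold and Ptprc at 2.39-fold, and 1 higher, Cd14 as above. Itgam, with signals of 23039, 21570 and 19278, was the largest part of that sum. Cd14 went from 4989 on the high-glucose-labelled array to 16711 on the siRNA-labelled array. Endothelial markers summed to 6.67, 6.71 and 7.98, mostly from Kdr, with 4 of 11 lower and 2 higher past 2-fold. Cdh5 was 2.86-fold and Esam 2.22-fold higher, and the dim Vwf and Robo4 were 2.40-fold and 2.13-fold lower. Tek and Cldn5 were at least 3.82-fold and 2.12-fold lower, from dim signals of 38.1 and 21.3 on the high-glucose-labelled array. Epithelial markers summed to 2.27, 2.22 and 2.06, mostly from Trp63, which had signals of 3548, 3377 and 2822 and was 1.40-fold lower. The median of the 6 compared was 0.46, with Krt18 3.74-fold and Krt19 2.92-fold higher and none lower past 2-fold. Epcam, Cdh1, Krt8 and Cldn4 were not well above background on any array. The part of these cell types in the proteoglycan values was not tested.

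The genes nearest in pattern were found over the 3 arrays among 13905 named genes well above background on each, by the distance between levels centred on each gene's mean. With 3 arrays this measure rests on little more than the level of the siRNA-labelled array. Nearest to Ogn were Lgr5, the R-spondin receptor, at a distance of 0.893, Ifitm1, an interferon-induced membrane protein, at 1.098, and the collagen-binding integrin Itga11 at 1.612, all of them with smaller differences than Ogn. Nearest to Lum were Cxcl5, Abca9 and Ces1g at distances of 0.006 to 0.031, with differences of -2.77, -2.79 and -2.81 from the high-glucose-labelled array. Nearest to Dcn were Slc39a14, Usp22 and Cyp2d11, and nearest to Bgn were Ggct, Cd72 and Dpm1, all 6 within 0.006.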

How the data were processed

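Total RNA was labelled with Cy3, per the labels, and hybridised to 3 arrays whose files carry 1 slide number. The deposited spot intensity is the processed signal of Agilent Feature Extraction 11.0.1.1, background-subtracted, per the file headers, on probes annotated on mm9. The authors' deposited value table holds the same intensity: all 39030 probes with a single spot were within 0.1% on each array. Its column medians were 118, 118 and 129, so it is linear and not centred, and how repeated spots were combined is unknown.

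Outlier-marked spots were dropped (109, 147 and 107 on the normal-glucose-labelled, high-glucose-labelled and siRNA-labelled arrays), as were 31 probes with every spot marked on an array. Log2 signals were averaged per probe and the 75th percentile of each array was subtracted. A probe was well above background where at least 50% of its spots were so marked. For a bound, the dim side is its own value or, if higher, the array's lowest signal that passed the mark (16.9, 16.4 and 11.7). Of 39429 probes 66.1% were named through RefSeq accessions (GRCm38.p6), and a gene was read from its brightest probe. Over 300 probes printed 10 times and above background throughout, the median SD between spots was 0.06 (log2), or 0.08 for a difference. This number of arrays, 1 per group, limits the precision.

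All members, the remaining family and up to 4 genes of each further list with the largest measured differences were to be named, and not all are printed. The endothelial genes Kdr, Egfl7, Pecam1, Tek and Cldn5 and the macrophage gene Itgam were added after their values were seen. So were Tagln, Kcnj8, the remaining fibroblast markers, Tnf and Scx. Members and lists were chosen with earlier results of these data known. Slide position and group are recorded differently inside the files and in their names. The comparison step was tested on simulated data. Python 3.11.15, pandas 2.3.3, R 4.3.3 and limma 3.58.1 were used. Alternatives were other scalings (quantile, cyclic loess, median), normexp with an offset of 50 on median spot signals, the value table, outlier spots kept, other filters, the mean over probes, thresholds of 1.5-fold and 3-fold and other assignments of the arrays.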

Additional observations from a re-analysis of the deposited data

How the results depend on the processing

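Over the 9 alternatives that kept the labels and the threshold, no member's value past 2-fold changed sign. Of 239 values 208 moved by less than 0.08, the SD of a difference between single spots. Much of that share was fixed in advance. Every member was read from a single probe, so the mean over probes could not move it, nor could the filters move a measured value. The value table holds the same intensities, and only the bounds of Omd and Aspn moved with it (to -5.93 and -4.15 against the high-glucose-labelled array). Normexp moved more values than any other alternative. Cyclic loess, quantile scaling and leaving out the filter moved others. Ogn ranged from -7.00 to -6.43 against the high-glucose-labelled array, Lum from -2.85 to -2.68, Dcn from -0.64 to -0.36 and Bgn from -0.66 to -0.58. Against the high-glucose-labelled array, the count of 7 members lower by 2-fold (8.21% of all genes) became 6 with normexp, where Fmod fell short (5.01% of all genes), 8 at 1.5-fold (15.8%), 6 at 3-fold (3.36%) and 5 with probes above background on both arrays, where Omd and Aspn have no value (7.18%). Against the normal-glucose-labelled array 7 were lower at 3-fold (3.26%).

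The assignment of arrays decides the direction. With the 2 high-glucose arrays exchanged, 0 members were lower and 7 higher by 2-fold on the siRNA-labelled than on the high-glucose-labelled array (6.51% and 8.21% of all genes), 0 were lower by 2-fold than on the normal-glucose-labelled array (0.690%), and 7 were lower by 2-fold on the high-glucose-labelled than on the normal-glucose-labelled array (7.94%). The values against high glucose became 6.95 for Ogn, 6.10 for Omd, 4.32 for Aspn, 4.04 for Kera, 2.76 for Lum, 2.42 for Podn and 1.34 for Fmod, and those against normal glucose 0.05 for Ogn, 0.09 for Omd, 0.16 for Aspn, 0.03 for Lum, 0.30 for Podn, 0.03 for Dcn, -0.04 for Bgn, -0.06 for Kera and -0.34 for Fmod. By the slide position inside the files, which exchanges the normal-glucose and siRNA labels, 0 members were lower by 2-fold on the siRNA-labelled array than on the high-glucose-labelled (0.816% of all genes) or the normal-glucose-labelled one (6.35%), 7 were higher by 2-fold than under normal glucose (7.94%), and 7 were higher by 2-fold under high than under normal glucose (8.21%). The values against normal glucose became 6.90 for Ogn, 6.00 for Omd, 4.16 for Aspn, 4.10 for Kera, 2.73 for Lum, 2.12 for Podn and 1.67 for Fmod, and those against high glucose 0.34 for Fmod, 0.06 for Kera, 0.04 for Bgn, -0.03 for Dcn, -0.03 for Lum, -0.05 for Ogn, -0.09 for Omd, -0.16 for Aspn and -0.30 for Podn.

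Leaving out a replicate could not be run with 1 array per group. No paired analysis was possible because each group has 1 array. Fmod, Omd and Aspn are limited by signal over background.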

Other observations

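Among 11 markers of cartilage, bone and tendon, where several of these proteoglycans were first described, 6 were compared between the siRNA-labelled and high-glucose-labelled arrays. Comp, encoding a collagen-binding matrix protein of cartilage and tendon, was 12.2-fold lower, from a signal of 313 to 30.0. Sox9, the transcription factor of cartilage, was 2.23-fold higher, and Mkx and Scx, tendon transcription factors, were 1.46-fold and 1.08-fold lower. The defining genes Col2a1, Sp7, Ibsp and Tnmd were not well above background on any array. Markers of this list gave a median of -0.13 and no common direction.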
